A study of Mus musculus with 9 samples.

Results

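The 9 genes described here encode C3, the central component of complement, together with components, regulators and receptors that act around it: C2, C3, C4b, Cfb, Cfp, Cd55, C3ar1, C5ar1 and Serping1. They were picked by gene symbol, and all 9 were found among the 18094 genes counted in the adult mouse uterus. The list was drawn up with the levels of these genes in these same libraries, and the comparisons between the groups, already known. The members' values are therefore given as descriptions, and an adjusted p beside a member records the fit over all genes and is no independent support.

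Complement is a cascade of plasma and tissue proteins in which proteases cleave C3, and the C3b fragment so released binds covalently to nearby surfaces. The classical and lectin pathways reach C3 through C4 and C2, the alternative pathway through factor B and factor D, and each can lead to release of the chemoattractant peptides C3a and C5a and to the membrane attack complex. Host cells hold the cascade in check with soluble inhibitors and with proteins anchored in their membranes. In the rodent uterus C3 is known as an abundant secretory product of the epithelium that estrogen induces.

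The libraries were made from total RNA of whole uteri of 13-week-old female mice, 3 libraries in each of 3 groups. Tamoxifen+primidone mice were given tamoxifen, a selective estrogen receptor modulator, by mouth at 1 mg/kg on days 1 to 5 of life, and primidone, an anticonvulsant that also blocks the ion channel TRPM3, by intraperitoneal injection at 2 mg/kg per day for 3 weeks from week 10. Tamoxifen mice, which carry the code AMS in the labels and stand for adenomyosis in the study, were given the same tamoxifen and then vehicle in place of primidone. Control mice were given the solvent as newborns and the vehicle as adults, with neither drug (the labels write vesicle, read here as vehicle). No source used here gives the strain, the stage of the estrous cycle, the histology of the uteri or a batch. The design gives 3 mice a group, which matches the 3 libraries, although the labels do not tie each library to a mouse, so p-values measure the spread between these libraries.

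Library totals ran from 36393120 to 39958443 counts. The lists of uterine epithelium, endometrial stroma and smooth muscle markers, with 12, 9 and 8 genes, had no gene at 0 in any library. Tests used edgeR's quasi-likelihood test in 1 fit over the 9 libraries and 15186 genes with enough counts, among them all 9 members, with Benjamini-Hochberg adjustment over all 15186 and a threshold of 0.05. Levels within a gene are given as CPM, counts scaled for library size and composition, and levels between genes as FPKM, which also divide by gene length.

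C3 stood far above the other members. By mean FPKM over the 9 libraries the order was C3 at 3305, Cfb at 1170, Serping1 at 200.1, C4b at 32.02, C2 at 22.6, Cd55 at 14.8, Cfp at 13.7, C3ar1 at 5.49 and C5ar1 at 2.27. The lowest FPKM of C3, 1996 in tamoxifen+primidone 1, still lay above the highest of Cfb, 1959 in tamoxifen 2, and Cfb and Serping1 likewise did not overlap with the gene next below them. Ranges over the libraries overlapped between C4b and C2, between C2 and Cd55, between Cd55 and Cfp and between Cfp and C3ar1. Within each single library, however, C4b lay above C2, C2 above Cd55 and Cfp above C3ar1. Only the order of Cd55 and Cfp changed between libraries. C3 alone took 1.04% to 2.24% of all counts in a library and ranked between 4th and 21st of all genes by FPKM. The Cd55 level per length is a low estimate if most transcripts are shorter than the 12210 bases by which the deposited FPKM divide.

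Promoter windows were found in the RefSeq table of build GRCm38.p6 for 5 of the 9 members, C3, Cd55, C3ar1, C5ar1 and Cfp, and not for C2, C4b, Cfb or Serping1. Shown are those of C3, the most abundant member, and of C5ar1, the member that passed the test below. Each runs 5′ to 3′ on the gene's minus strand, from 250 bases before to 50 after the annotated start, so that base 251 is the first transcribed base. The C3 window is chr17:57228087-57228386 and the C5ar1 window is chr7:16259289-16259588. Capitals mark matches to any motif searched on both strands.
C3: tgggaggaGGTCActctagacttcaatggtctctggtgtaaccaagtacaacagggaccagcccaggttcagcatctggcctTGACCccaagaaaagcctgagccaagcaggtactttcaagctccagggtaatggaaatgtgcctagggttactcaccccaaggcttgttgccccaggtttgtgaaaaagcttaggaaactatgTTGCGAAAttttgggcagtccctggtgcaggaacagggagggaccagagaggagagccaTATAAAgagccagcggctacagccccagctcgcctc
C5ar1: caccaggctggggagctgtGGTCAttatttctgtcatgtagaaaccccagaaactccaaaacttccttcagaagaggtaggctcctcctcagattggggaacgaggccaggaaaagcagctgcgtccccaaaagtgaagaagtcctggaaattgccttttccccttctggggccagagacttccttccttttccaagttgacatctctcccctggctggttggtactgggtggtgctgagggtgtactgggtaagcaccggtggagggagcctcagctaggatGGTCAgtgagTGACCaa
The C3 window holds the estrogen response element half-site GGTCA at bases 9 to 13 and, on the opposite strand, at 83 to 87. It also holds a C/EBP motif, TTGCNNAA, at bases 206 to 213 and a TATA box, TATAAA, at bases 265 to 270, after the annotated start. The C5ar1 window holds the half-site at bases 20 to 24 and 284 to 288 and, on the opposite strand, at 294 to 298. Of 32851 windows of the same length, 40.5% held the half-site, 10.8% the C/EBP motif and 13.6% the TATA box. The half-site was also found in the Cfp window and the TATA box in that of C3ar1. The full estrogen response element (GGTCA, 3 bases of any kind, TGACC), the NF-kB motif (GGGA, any base, TTTCC), the interferon-stimulated element (GAAA, 2 bases of any kind, GAAA) and the PU.1 core GAGGAAGT were in none of the 5 windows, against 0.070%, 0.411%, 3.44% and 3.2% of all windows. A half-site is part of the full element, and the other motifs do not overlap. A match is a description of these letters and says nothing of binding.

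**Figure D1:**
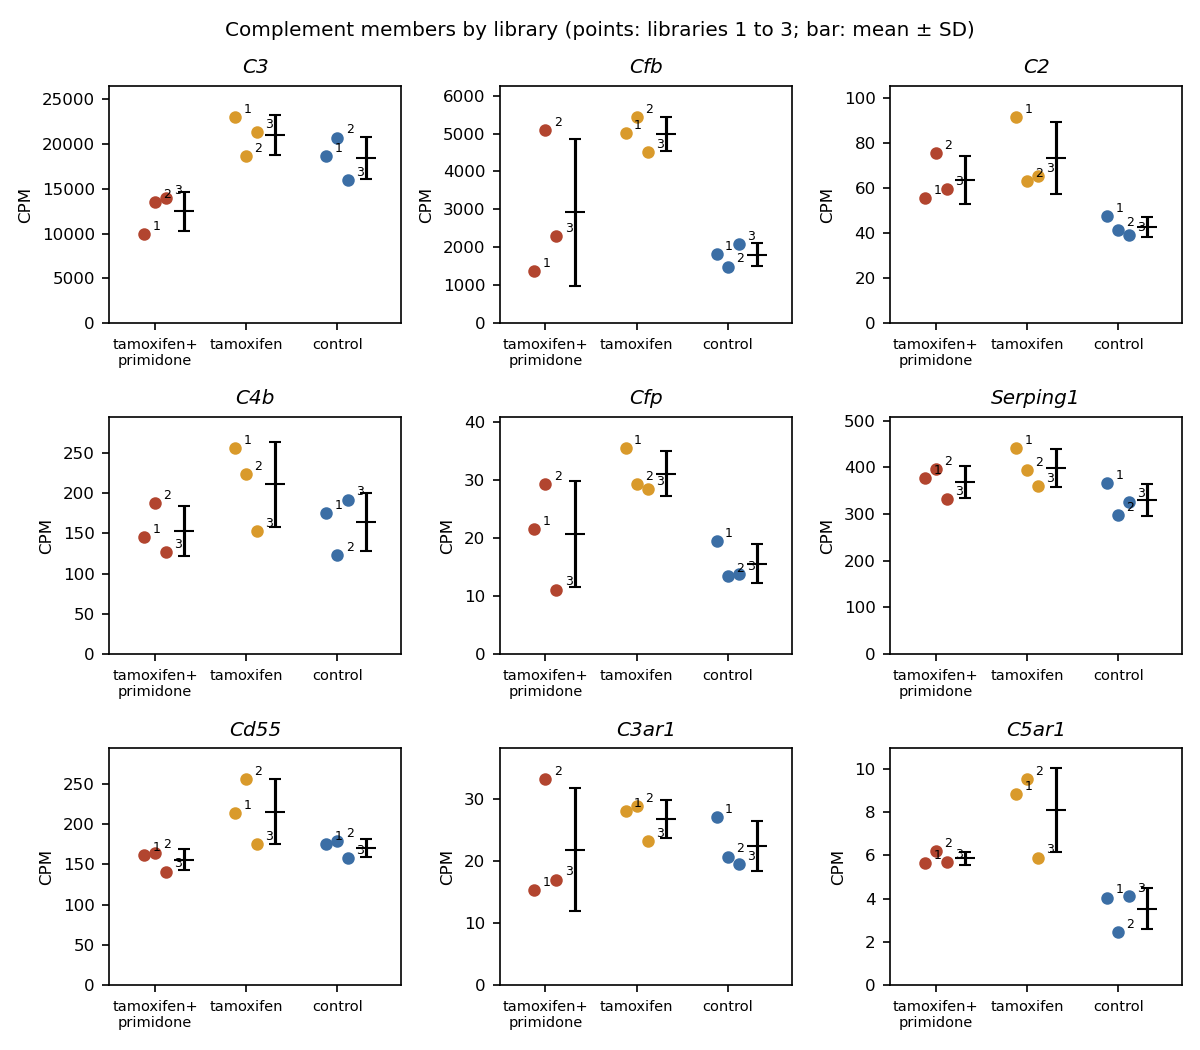
CPM of the 9 members (vertical axis of each panel, starting at 0) in the 3 libraries of each group, numbered as replicates, with the mean and SD beside them. C3 sits at 9903 to 13934 CPM in tamoxifen+primidone libraries, below every tamoxifen and control library, and Cfb in tamoxifen+primidone 2 sits apart from the other libraries of its group.

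The first comparison addressed what neonatal tamoxifen left behind in the adult uterus. All 9 members had higher fitted levels in tamoxifen than in control libraries, as did 50% of all genes, with a median log2 fold change of 0.37 against 0.00 for all genes. Ranges of the 3 libraries lay wholly above control for 4 members, Cfb, C2, Cfp and C5ar1, against 12.7% of all genes. In the fit 1 member was called, C5ar1, which was higher, as were 0.573% of all genes, and 6 members had an unadjusted p under 0.05, against 17.8% of all genes.

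Of the alternative pathway members, Cfb had the largest log2 fold change of the 9 in this comparison. Cfb encodes factor B, which supplies the protease of the alternative pathway's C3 convertase. It stood at 5008, 5438 and 4516 CPM in tamoxifen libraries, against 1829, 1489 and 2092 CPM in control libraries. Every tamoxifen library held more than every control library by a wide gap, and the log2 fold change was 1.47 ± 0.41 (approximate standard error here and below; edgeR adjusted p = 0.113). Cfp encodes properdin, a protein made by myeloid cells that stabilises that convertase. Its levels were 35.5, 29.2 and 28.3 CPM in tamoxifen libraries, against 19.4, 13.5 and 13.8 CPM in control libraries, with a log2 fold change of 1.00 ± 0.31 (edgeR adjusted p = 0.139). Both genes missed the threshold in the fit of all 9 libraries and passed it when the 6 libraries compared were fitted alone, at an edgeR adjusted p of 0.0016 for Cfb and 0.0171 for Cfp. In that smaller fit the spread of the tamoxifen+primidone libraries, which is wide for both genes, does not enter. It called more genes of every kind, 226 higher and 320 lower of 14887, against 87 and 146 of 15186 in the fit of all 9 libraries.

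Of the classical and lectin pathway members, C2, the protease component of the C3 convertase that C4 anchors, had 91.5, 62.8 and 65.3 CPM in tamoxifen libraries, against 47.5, 41.2 and 38.9 CPM in control libraries. The groups did not overlap, and the log2 fold change of 0.78 ± 0.16 lay just outside the threshold (edgeR adjusted p = 0.0501, against 0.036 in the fit of these 6 libraries). In the reference annotation Cfb is the nearest neighbour of C2 and both lie on chromosome 17. Cfb had 23.6 to 82.8 times the FPKM of C2 in the same library, and whether reads from Cfb enter the C2 count was not tested. C4b, the C4 component that classical and lectin proteases cleave, ranged from 153 to 256 CPM in tamoxifen libraries and from 123 to 192 CPM in control libraries, and the groups overlapped. C4b has a near-identical copy in the mouse, C4a, whose symbol is not among the genes counted, so the value of C4b is uncertain. Serping1 encodes C1 inhibitor, which blocks the C1 and lectin pathway proteases. It ranged from 360 to 442 CPM in tamoxifen libraries and from 298 to 367 CPM in control libraries, an overlap through 1 library on each side.

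C3 itself differed little between these groups. Its levels were 23026, 18626 and 21307 CPM in tamoxifen libraries, against 18625, 20720 and 15996 CPM in control libraries. The groups overlapped, and the log2 fold change was 0.19 ± 0.17 (edgeR adjusted p = 0.613). With C3 near level and Cfb higher, the ratio of C3 to Cfb in FPKM was 2.44, 1.82 and 2.51 in tamoxifen libraries, against 5.41, 7.39 and 4.06 in control libraries. This ratio within a library needs no scaling between libraries, and the groups did not overlap.

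The receptors were the members with the lowest levels per length. C5ar1, the receptor through which C5a draws in neutrophils and macrophages, was at 8.86, 9.54 and 5.90 CPM in tamoxifen libraries, against 4.05, 2.46 and 4.10 CPM in control libraries. It rose by a log2 fold change of 1.19 ± 0.25 (edgeR adjusted p = 0.0489). This call stood at the threshold: it was lost without each library except tamoxifen+primidone 1, at an edgeR adjusted p of up to 0.127. The call was also lost when the 6 libraries compared were fitted alone. C3ar1, the receptor of C3a, ranged from 23.2 to 28.9 CPM in tamoxifen libraries and from 19.4 to 27.0 CPM in control libraries, with overlap. Cd55, decay-accelerating factor, which takes C3 convertases apart on the cell surface, ranged from 175.5 to 256.5 CPM in tamoxifen libraries and from 158 to 179.5 CPM in control libraries. Tamoxifen 3 alone lay within the control range.

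Most markers of myeloid cells were also at higher levels in the tamoxifen libraries. Summed over the 9 genes of the macrophage list, they ranged from 1263 to 1554 CPM in tamoxifen libraries and from 1043 to 1131 CPM in control libraries, with 8 of 9 log2 fold changes positive and 0 genes called by edgeR. For these macrophage genes 2 had an unadjusted p under 0.05. The 9 genes of the neutrophil list summed to 62.2 to 75.2 CPM in tamoxifen libraries and 24.7 to 51.1 CPM in control libraries. The largest part of each tamoxifen sum was Retnlg, at 36.4 to 48.4 CPM. Of the 6 neutrophil genes tested, 5 log2 fold changes were positive and 0 genes were called by edgeR. Mpo, at −0.97, and Cd68 of the macrophage list, at −0.22, went the other way. In the neutrophil list Mmp8, Ngp and Elane were at 0 in at least 1 library. In whole tissue, more cells of a type and more RNA per cell cannot be told apart, and the part of these cells in the values of C5ar1, Cfp and C3ar1 was not tested. Markers of other tissues also differed in this comparison. The 18 liver genes, all with positive log2 fold changes, of which 5 rose, summed to 214 to 416 CPM in tamoxifen libraries and 130 to 172 CPM in control libraries. The 5 mesothelium genes all had positive log2 fold changes, and 1 rose. The 8 smooth muscle genes all had negative ones, with a median of −0.64, 6 with ranges wholly below control and 0 called by edgeR, while 6 had an unadjusted p under 0.05. The part of these tissues in the members' values was not tested. Genes responsive to interferon, a known inducer of complement genes, overlapped between tamoxifen and control libraries for each of the 19 listed. Of their log2 fold changes 11 were positive and 8 negative. In tamoxifen+primidone against tamoxifen 17 of the 19 were negative, again with overlap for each and 0 called by edgeR. The part of interferon in the members' values was not tested.

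**Figure D2:**
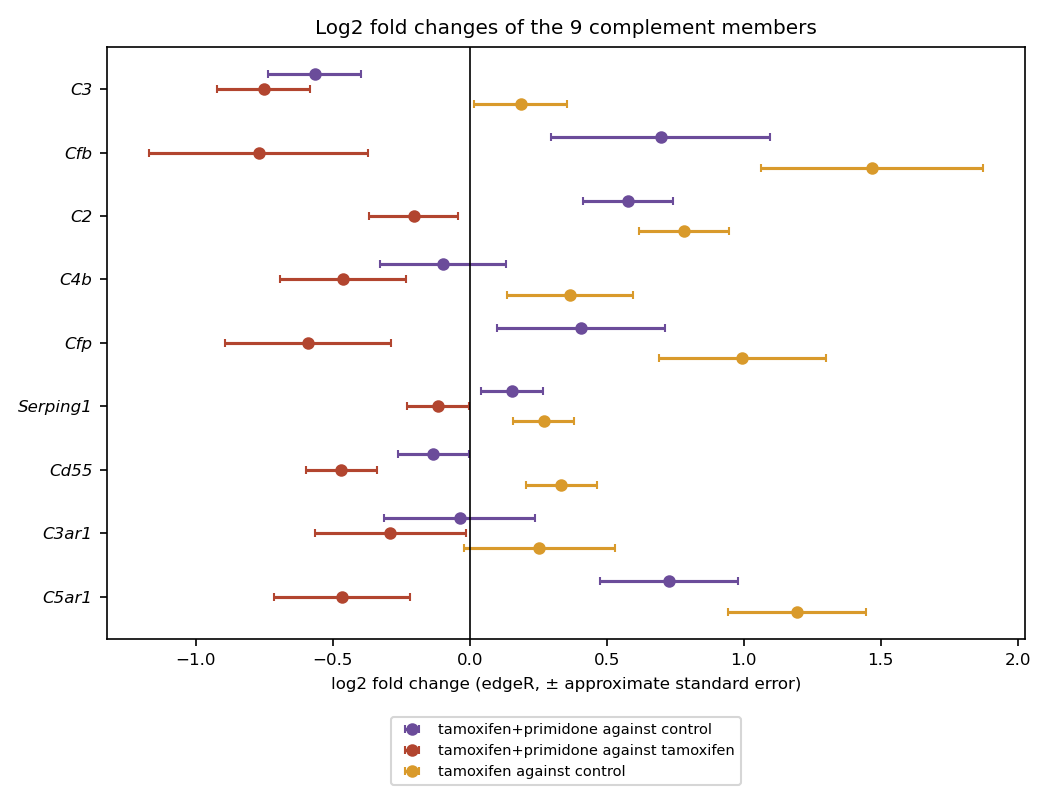
Log2 fold change of each member (horizontal axis) in the 3 comparisons from the edgeR fit, with approximate standard errors as bars. In tamoxifen against control the 9 points lie right of 0, and in tamoxifen+primidone against tamoxifen they lie left of 0, where C3 and Cfb are near −0.75 and −0.77. The comparisons share libraries and are not independent.

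The second comparison addressed what 3 weeks of primidone did in mice given tamoxifen as newborns. All 9 members had lower fitted levels in tamoxifen+primidone than in tamoxifen libraries, as did 47.2% of all genes, with a median log2 fold change of −0.47 against 0.02 for all genes. Since both comparisons use the tamoxifen libraries, high values there push the 2 sets of fold changes in opposite directions. Ranges lay wholly below those of tamoxifen libraries for 2 members, C3 and Cd55, against 8.55% of all genes. None of the members was called by edgeR, which called 0.0132% of all genes here. At an unadjusted p under 0.05 there were 2, C3 and Cd55, against 13.8% of all genes, and DESeq2 called these 2, against 3.9% of the genes it tested.

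C3 was at 9903, 13548 and 13934 CPM in tamoxifen+primidone libraries, against 23026, 18626 and 21307 CPM in tamoxifen libraries. The highest library with primidone stayed below the lowest without it, and the log2 fold change was −0.75 ± 0.17 (edgeR adjusted p = 0.125, and 0.114 to 0.289 with 1 library left out; DESeq2 adjusted p = 0.000274). With each library left out in turn the log2 fold change stayed between −0.84 and −0.61. The deposited FPKM, which carry no composition scaling, showed the same separation, with 1996, 2698 and 2724 FPKM in tamoxifen+primidone libraries against 4309, 3563 and 4018 FPKM in tamoxifen libraries. Cd55 was at 161.5, 165 and 141 CPM in tamoxifen+primidone libraries, against 214, 256.5 and 175.5 CPM in tamoxifen libraries, with a log2 fold change of −0.47 ± 0.13 (edgeR adjusted p = 0.178; DESeq2 adjusted p = 0.0361). The group without primidone was the more scattered of the pair, and its library 3 lay nearest to the others.

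Epithelial markers were lower alongside C3. The 12 genes of the uterine epithelium list summed to 3936 to 4568 CPM in tamoxifen+primidone libraries, against 5232 to 5642 CPM in tamoxifen libraries, with no overlap. Of these genes 11 had negative log2 fold changes, with a median of −0.36, and 0 were called by edgeR, while 9 had an unadjusted p under 0.05. Krt8, Krt19 and Elf3 were the most abundant of the list, and Krt8, a keratin of simple epithelia, had 718, 913.5 and 857.5 CPM in tamoxifen+primidone libraries, against 1121, 1024 and 1042 CPM in tamoxifen libraries. The 11 estrogen-responsive uterine genes summed to 6595 to 10022 CPM in tamoxifen+primidone libraries, against 17314 to 21830 CPM in tamoxifen libraries, with 10 negative log2 fold changes and 0 calls by edgeR, while 4 had an unadjusted p under 0.05. In control libraries these genes summed to 13659 to 14430 CPM, below every tamoxifen library, while C3 overlapped between tamoxifen and control libraries. Ltf, Lcn2 and Sprr2f were the most abundant of the list and weigh most in its sum. Gene by gene the list was mixed in tamoxifen against control. Ranges lay wholly above control for 5 of the 11 genes and wholly below it for 3, Greb1, Muc1 and Pgr. The part of epithelial content in the C3 level was not tested. Liver, whose hepatocytes also secrete C3, was represented by 18 marker genes. They summed to 406 to 474.5 CPM in tamoxifen+primidone libraries and 214 to 416 CPM in tamoxifen libraries, with overlap. All 18 log2 fold changes were positive, 9 genes overlapped between the groups and 0 were called by edgeR, while 8 had an unadjusted p under 0.05.

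Cfb did not follow C3 within the group given primidone. It stood at 1370, 5098 and 2304 CPM in tamoxifen+primidone libraries 1, 2 and 3, against 5008, 5438 and 4516 CPM in tamoxifen libraries. Library 2 lay within the tamoxifen range, while library 1 lay below and library 3 just above the control range of 1489 to 2092 CPM. The coefficient of variation of Cfb was 66.3% in tamoxifen+primidone libraries and 9.25% in tamoxifen libraries, where the median gene had 13.0% and 11.4%. The log2 fold change was −0.77 ± 0.40 (edgeR adjusted p = 0.443), and −1.45 without tamoxifen+primidone 2 (edgeR adjusted p = 0.0723).

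Of the members linked to myeloid cells, C3ar1 was split in the same way and Cfp only in part. C3ar1 was at 15.2, 33.2 and 17.0 CPM in tamoxifen+primidone libraries, against 28.0, 28.9 and 23.2 CPM in tamoxifen libraries. Library 2 held the highest C3ar1 level of all 9 libraries and library 1 the lowest. Cfp was at 21.5, 29.2 and 11.1 CPM in tamoxifen+primidone libraries, against 35.5, 29.2 and 28.3 CPM in tamoxifen libraries. The macrophage list was split as C3ar1 was, at 890, 1589 and 933 CPM in tamoxifen+primidone libraries, of which library 2 exceeded every other library of the study. The neutrophil list stood at 44.3, 87.4 and 44.8 CPM in the same libraries, although its gene Mpo was highest in library 3, at 14.6 CPM. C5ar1 varied little, with 5.66, 6.21 and 5.71 CPM in tamoxifen+primidone libraries, and a coefficient of variation of 5.14%. Whether the number of myeloid cells sets these values was not tested.

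Of the remaining members, C2 ranged from 55.6 to 75.4 CPM in tamoxifen+primidone libraries and from 62.8 to 91.5 CPM in tamoxifen libraries. C4b ranged from 126 to 187 CPM in tamoxifen+primidone libraries and from 153 to 256 CPM in tamoxifen libraries. Serping1 ranged from 331 to 397 CPM in tamoxifen+primidone libraries and from 360 to 442 CPM in tamoxifen libraries. All 3 overlapped between the groups, and Serping1 varied little within them, with a coefficient of variation of 9.15% in tamoxifen+primidone libraries and 10.3% in tamoxifen libraries.

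**Figure D3:**
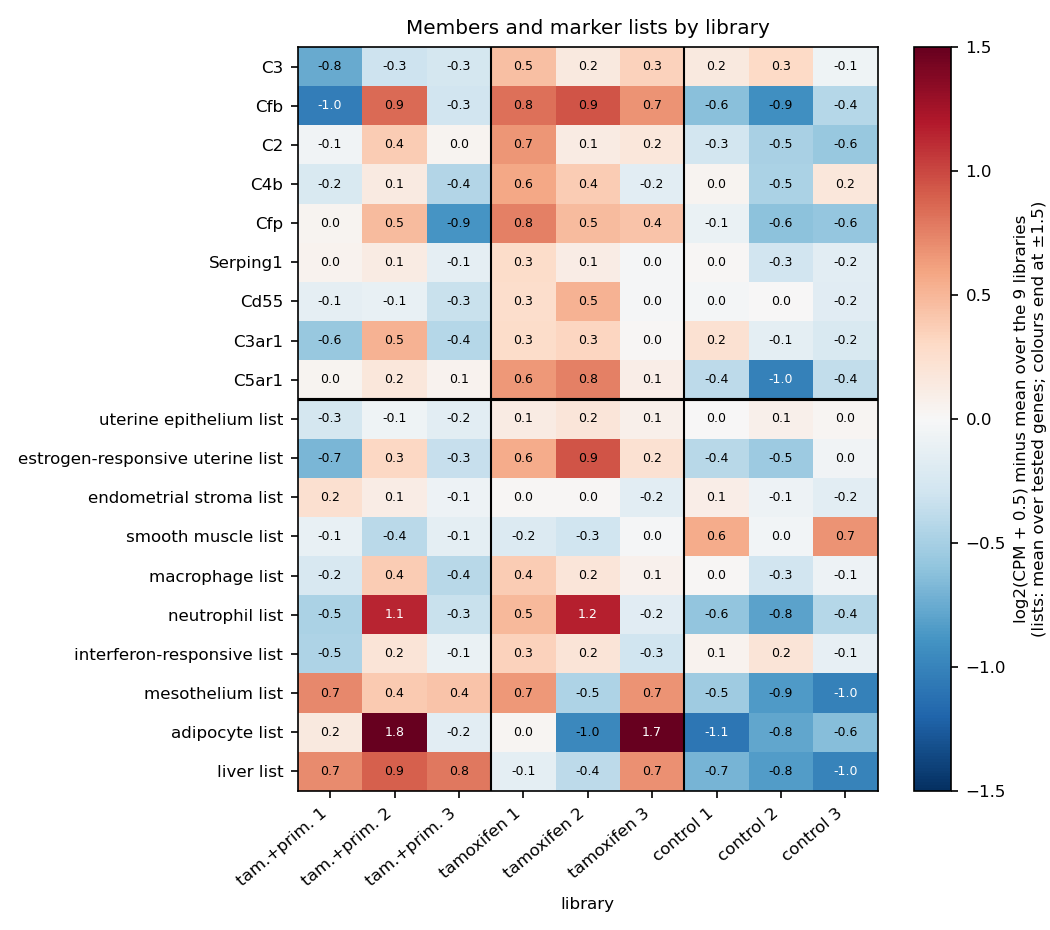
Level of each member, and mean level of each marker list, as log2(CPM + 0.5) minus the mean over the 9 libraries (colour and printed value), with libraries in columns. Tamoxifen+primidone 2 is above its group's other libraries in Cfb, C3ar1, Cfp, the macrophage list and the neutrophil list, while C3 is below 0 in all 3 libraries of that group.

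The third comparison set the uteri of mice given both drugs against control uteri, and uses the same tamoxifen+primidone libraries as the second. The members split in direction, with 5 positive log2 fold changes, a sign that 51.7% of all genes had, 4 negative ones and a median of 0.15 against 0.01 for all genes. Ranges lay wholly above control for C2 and C5ar1 and wholly below it for C3, against 29.1% of all genes in either direction. None of the members was called by edgeR, which called 5.35% of all genes. At an unadjusted p under 0.05 there were 3, those just named, against 23.2% of all genes. DESeq2 called the same 3, against 11.7% of the genes it tested, and limma on log2(FPKM + 1) called C2, against 8.04%.

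C3, at 9903, 13548 and 13934 CPM in tamoxifen+primidone libraries, lay below the control libraries as well, which held 18625, 20720 and 15996 CPM. The log2 fold change was −0.57 ± 0.17 (edgeR adjusted p = 0.0793; DESeq2 adjusted p = 0.00564). The epithelium list had a median log2 fold change of −0.30 in this comparison, and 3 of its 12 genes, Elf3, Esrp1 and Cldn4, fell (chosen here because they were the ones called). C2 was at 55.6, 75.4 and 59.5 CPM in tamoxifen+primidone libraries, against 47.5, 41.2 and 38.9 CPM in control libraries, with a log2 fold change of 0.58 ± 0.16 (edgeR adjusted p = 0.0698; DESeq2 adjusted p = 0.0149). C5ar1 was at 5.66, 6.21 and 5.71 CPM in tamoxifen+primidone libraries, against 4.05, 2.46 and 4.10 CPM in control libraries, with a log2 fold change of 0.73 ± 0.25 (edgeR adjusted p = 0.118). Cfb, with a log2 fold change of 0.70 ± 0.40, was at 0.03 without tamoxifen+primidone 2. Cfp, C4b, Cd55, C3ar1 and Serping1 overlapped with control, at log2 fold changes of 0.41, −0.10, −0.13, −0.04 and 0.15.

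Around the members stand 43 other complement genes listed by role, of which 41 were in the table and 38 had enough counts to be tested. In tamoxifen against control 0 of these were called by edgeR, against 1.53% of all genes, 5 had an unadjusted p under 0.05, against 17.8%, and DESeq2 called 3, against 7.11% of the genes it tested. In tamoxifen+primidone against tamoxifen 0 were called by edgeR, against 0.0132% of all genes, and 9 had an unadjusted p under 0.05, against 13.8%. DESeq2 called 2 there, against 3.9% of the genes it tested. In tamoxifen+primidone against control 2 of 38 rose and 0 fell, a share near the 5.35% of all genes that were called. DESeq2 called 7 of the complement genes there, against 11.7% of all genes it tested. Median log2 fold changes of the 38 were 0.14 in tamoxifen against control, 0.03 in tamoxifen+primidone against tamoxifen and 0.21 in tamoxifen+primidone against control. In the second of these comparisons 19 were positive and 19 negative, beside the 9 members that were all negative.

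Among the initiators, C1qa and C1qb, chains of the C1q molecule that starts the classical pathway and is made largely by macrophages, were the most abundant per length, with means of 134 and 118 FPKM over the 9 libraries. C1qa ranged from 105 to 190 CPM in tamoxifen+primidone libraries, from 124 to 219 CPM in tamoxifen libraries and from 117 to 132 CPM in control libraries. Its highest level in the group given primidone was again in library 2. Cfd encodes factor D, or adipsin, the protease that cleaves factor B and a classical product of fat cells. It stood at 18.4, 130 and 30.2 CPM in tamoxifen+primidone libraries, 31.5, 11.6 and 92.7 CPM in tamoxifen libraries and 4.86, 7.98 and 5.15 CPM in control libraries. The same 2 libraries, tamoxifen+primidone 2 and tamoxifen 3, were highest in the fat cell list of 7 genes that leaves out Cfd, with 201 and 182 CPM against 33.9 to 62.5 CPM in the other libraries. Cfd was not called by edgeR in any comparison, and DESeq2 called it in tamoxifen and in tamoxifen+primidone against control, and the part of fat in its level was not tested.

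Of the soluble regulators, Cfi, factor I, a plasma protease that inactivates C3b, had a mean of 90.6 FPKM. It ranged from 137 to 174 CPM in tamoxifen+primidone libraries and from 192 to 268 CPM in tamoxifen libraries, without overlap. The log2 fold change was −0.59 ± 0.18 (edgeR adjusted p = 0.204, DESeq2 adjusted p = 0.0383).

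Both genes that were called in tamoxifen+primidone against control are made mainly by the liver and had few reads. C9, which polymerises into the membrane attack pore, had 43, 63 and 24 counts in tamoxifen+primidone libraries, against 10, 6 and 5 counts in control libraries (log2 fold change 2.55 ± 0.60, edgeR adjusted p = 0.0399). Cpn2, a subunit of the carboxypeptidase that inactivates C3a and C5a, had 29, 30 and 12 counts in tamoxifen+primidone libraries, against 4, 4 and 3 counts in control libraries (2.59 ± 0.61, edgeR adjusted p = 0.0409). With each library left out in turn, the call of Cpn2 held only without tamoxifen+primidone 3, and that of C9 only without tamoxifen+primidone 3, tamoxifen 2 or tamoxifen 3. Adjusted p reached 0.132 for C9 without control 3 and 0.133 for Cpn2 without control 3 (edgeR). Cpn2 also missed the threshold without a low-count filter (edgeR adjusted p = 0.0593) and in the fit of these 6 libraries (edgeR adjusted p = 0.0602), where C9 passed. In the same comparison 15 of 18 liver marker genes rose, and the list summed to 406 to 474.5 CPM in tamoxifen+primidone libraries, against 130 to 172 CPM in control libraries. The part of liver RNA in C9 and Cpn2 was not tested. The terminal components with the highest levels per length, C6 and C8g, had means of 0.818 and 0.787 FPKM and were not called by edgeR in any comparison.

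Of the membrane regulators, Cr1l, the rodent regulator of C3 convertases known as Crry, and Cd59a, which blocks the attack complex, had means of 36.1 and 5.36 FPKM. Cr1l stood at 57.0, 55.2 and 71.6 CPM in tamoxifen+primidone libraries, 74.6, 68.2 and 71.8 CPM in tamoxifen libraries and 76.1, 75.7 and 75.1 CPM in control libraries. Of the receptors, Itgam and Itgb2, which pair as complement receptor 3, had means of 81.6 and 14.8 FPKM. Itgam ranged from 220 to 362 CPM in tamoxifen+primidone libraries, from 263 to 490 CPM in tamoxifen libraries and from 471 to 513 CPM in control libraries, while Itgb2 ranged from 39.7 to 57.7, from 44.6 to 54.9 and from 30.9 to 39.8 CPM in the same order of groups. None of these 4 genes was called in the edgeR fit of all 9 libraries. In tamoxifen+primidone against control, Itgam had a log2 fold change of −0.76 ± 0.23 (edgeR adjusted p = 0.0867). It passed in the fit of these 6 libraries (edgeR adjusted p = 0.0494), without tamoxifen 2 (edgeR adjusted p = 0.0396) and with DESeq2 (adjusted p = 0.00824). Cr1l, at −0.30 ± 0.10 (edgeR adjusted p = 0.105), passed without tamoxifen+primidone 3 (edgeR adjusted p = 0.0222).

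**Figure D4:**
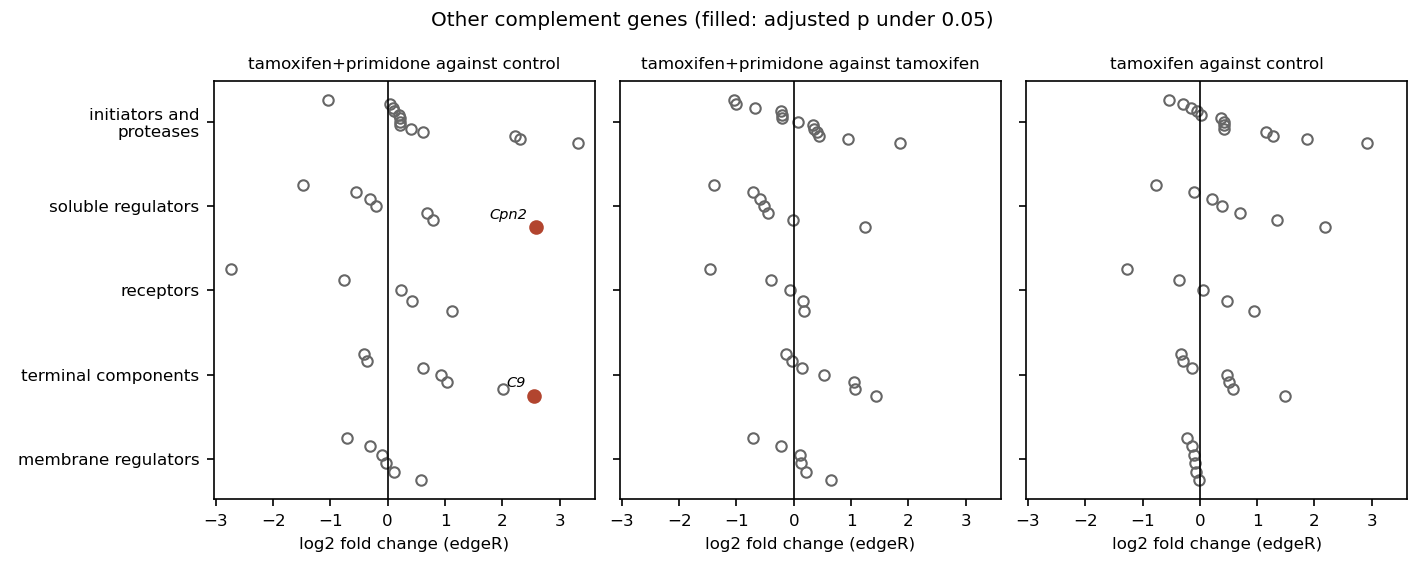
Log2 fold changes (horizontal axis) of the 38 tested complement genes outside the 9 members, 1 point per gene, by role and comparison, with genes past the threshold filled and named. Only C9 and Cpn2, in tamoxifen+primidone against control, are filled.

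The genes whose levels lay closest to those of C3 over the 9 libraries were sought among 10318 tested genes with a mean of at least 10 CPM. Closeness was the root mean square difference in log2 CPM after each gene was centred on its own mean, and C3 itself had a root mean square of 0.368 around its mean. The nearest was Cxcl17, a chemokine of mucosal surfaces, at 0.0771. It stood at 166, 233 and 212 CPM in tamoxifen+primidone libraries, 412.5, 295 and 359 CPM in tamoxifen libraries and 308, 321 and 282 CPM in control libraries. Next came Dcxr, a carbonyl reductase, at 0.132, Stard5, a lipid transfer protein, at 0.132, Rnf19b, a ubiquitin ligase, at 0.14, and Pmel, known as a pigment cell protein, at 0.148. These distances describe 9 libraries that share their normalization, and no test was made of them.

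**Figure D5:**
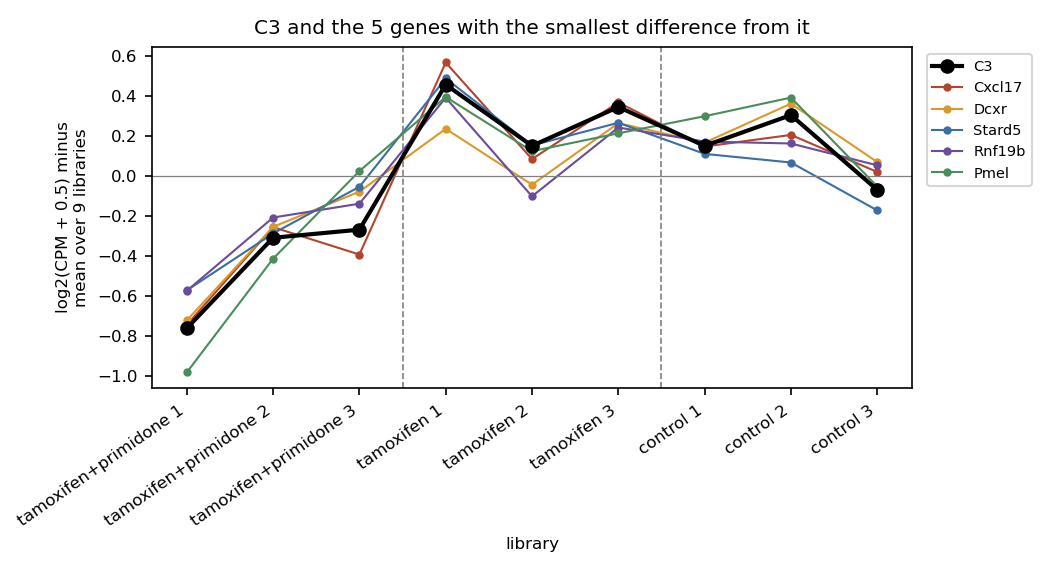
Centred log2(CPM + 0.5) of C3 and the 5 genes nearest to it (vertical axis) in each library (horizontal axis), with lines that join the points of a gene for the eye alone. The values of C3 and Cxcl17 are lowest in tamoxifen+primidone 1 and highest in tamoxifen 1.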

How the data were processed

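The deposited table holds raw read counts and FPKM of 18094 gene symbols, made by the authors. Tools named per the submitters' processing notes are HTSeq, HISAT2, DESeq2 and R 3.2.0, with build GRCm39. No source used here gives the annotation or the strand setting, so reads of overlapping genes, such as Cd55 and its antisense gene Cd55os, cannot be told apart. Dividing the deposited counts by the FPKM gave a gene length within 0.01 of a whole number for 99.98% of genes.

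Replicates differed beyond counting noise (chi-square per degree of freedom 19.57 to 78.47), so none was merged. Counts were tested in R 4.3.3 with edgeR 4.0.16 (TMM scaling, default filter by group, robust quasi-likelihood, 2-sided) over all 9 libraries. Standard errors are the size of the log2 fold change over the root of F, an approximation. The procedure was tested on simulated data. CPM here are counts over TMM-scaled totals. Alternatives were DESeq2 1.42.0, limma 3.58.1 on FPKM, other scalings, filters and fits, and leaving out each library. Promoters and gene neighbours come from RefSeq tables of GRCm38.p6, another build than the authors', used for sequence and names.

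Members and lists were chosen with earlier results of these data known. The text names every member, the 2 genes of each other complement list with the highest mean FPKM, those called, and the 5 genes nearest to C3. Of the genes so chosen, 1 is not reported here. Cfd, C4bp, Vsig4, the C1r and C1s genes and some list members were named after their values were seen.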

Additional observations from a re-analysis of the deposited data

How the results depend on the processing

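Of the 243 values obtained for the members' 27 log2 fold changes under 9 other settings, 224 kept their side of the threshold and direction, 15 passed it and 4 no longer did; with 1 library left out, of 243 values 224 stayed, 6 passed, 8 no longer did and 5 changed sign. The changes of sign were in tamoxifen+primidone against control, for C3ar1 (range −0.47 to 0.17, with 0.12 without control 1, 0.17 without tamoxifen+primidone 1 and 0.12 without tamoxifen+primidone 3) and C4b (range −0.27 to 0.035, with 0.035 without control 3 and 0.029 without tamoxifen+primidone 3). The 1 member called in tamoxifen against control became 2 with DESeq2 size factors and 2 without a low-count filter. With DESeq2, which called 7.11% of the genes it tested, the count became 4. In a fit of the 2 groups alone it became 3. Those 3 were Cfb, Cfp and C2, so the call of C5ar1 was lost in that fit. The count became 0 with upper-quartile factors, with limma on log2(FPKM + 1) without a filter and with the replicate block, and 0 to 3 with a library left out. The 0 members of tamoxifen+primidone against tamoxifen became 2 with DESeq2 and stayed 0 without any library. The 0 of tamoxifen+primidone against control became 3 with DESeq2 and 1 with limma on log2(FPKM + 1) or log2(FPKM + 0.1), and 0 to 1 with a library left out. Of the other complement genes, the 0 in tamoxifen against control became 3 with DESeq2, 1 in the fit of 2 groups and 0 to 1 with a library left out. The 0 in tamoxifen+primidone against tamoxifen became 2 with DESeq2. The 2 in tamoxifen+primidone against control became 7 with DESeq2 (4 higher, 3 lower), 4 in the fit of 2 groups (1 higher, 3 lower), 1 without a low-count filter and 1 in each of the 3 limma fits, and 0 to 4 with a library left out. Over all genes, the fit of 2 groups called 226 higher and 320 lower of 14887 in tamoxifen against control. In tamoxifen+primidone against control it called 250 higher and 374 lower of 14922. The cause of these changes was not tested, except that a fit of 2 groups leaves out the spread of the third.

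Libraries of the groups share replicate numbers, and the labels do not say that a number links mice across groups. Correlations of deviations between same-numbered libraries ran from −0.134 to 0.177. Of 6 libraries, 2, 4 and 2 correlated best with their own number in the 3 comparisons. So few libraries cannot exclude a link. With the replicate block, edgeR called 124 genes higher and 193 lower in tamoxifen against control, 5 and 48 in tamoxifen+primidone against tamoxifen and 403 and 581 in tamoxifen+primidone against control, where the fit without it called 87 and 146, 0 and 2, and 325 and 487. With the block the edgeR adjusted p was 0.0669 for C5ar1 in tamoxifen against control, and in tamoxifen+primidone against control 0.0559 for C9, 0.0597 for Cpn2 and 0.0404 for Itgam. With upper-quartile factors the last split was 431 and 400, and with limma on log2(FPKM + 1) it was 664 and 334. Depth limits C9, Cpn2, C8b and other liver-made components, which have few counts in control libraries.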

Other observations

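C4bp, a soluble inhibitor of the C3 convertase that C4 anchors, stood at 6.31, 4.13 and 2.09 CPM in tamoxifen+primidone libraries, 11.97, 6.76 and 14.2 CPM in tamoxifen libraries and 1.25, 3.67 and 2.32 CPM in control libraries. Its tamoxifen levels lay above all the others. The log2 fold change was 2.18 ± 0.49 in tamoxifen against control (edgeR adjusted p = 0.0636, DESeq2 adjusted p = 7.74e-05). In tamoxifen+primidone against tamoxifen it was −1.39 ± 0.47 (edgeR adjusted p = 0.244, DESeq2 adjusted p = 0.0428). Against control C4bp also passed in the fit of the 6 libraries compared (edgeR adjusted p = 0.0378). With 1 library left out it passed only without tamoxifen+primidone 1 or tamoxifen+primidone 3. The gene was singled out after its values were seen, as was Vsig4, a complement receptor of resident macrophages. Vsig4 had 9, 13 and 12 counts in tamoxifen+primidone libraries and 68, 6 and 19 counts in tamoxifen libraries. Control libraries held 107, 60 and 51 counts. In tamoxifen+primidone against control the log2 fold change was −2.73 ± 0.74 (edgeR adjusted p = 0.061, DESeq2 adjusted p = 0.00383). Vsig4 also passed in the fit of these 6 libraries (edgeR adjusted p = 0.0219). With 1 library left out it passed only without tamoxifen 1 or tamoxifen 2.

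The C1r and C1s genes, which encode the proteases of C1 and each have a close copy, had an unusual balance in tamoxifen 2. C1rb stood at 53.4 CPM there, against 9.71 to 15.2 CPM in the other 8 libraries, and C1ra at 68.0 CPM, against 83.1 to 117 CPM. The sum of the pair, 121 CPM, lay within the 92.8 to 130 CPM of the other libraries, while C1rb made up 44.0% of it there and 10.1% to 12.1% elsewhere. C1s1, at 121 CPM, and C1s2, at 15.3 CPM, were also lowest in tamoxifen 2, against 183 to 252.5 CPM and 23.1 to 33.2 CPM. How the reads of these copies were divided was not tested, and the values of each are uncertain. This library was chosen for description after its values were seen.

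Endometrial stroma and mesothelium lists are given for completeness. The 9 stromal genes summed to 6418 to 7975 CPM in tamoxifen+primidone libraries, 7631 to 7749 CPM in tamoxifen libraries and 6850 to 8916 CPM in control libraries. The 5 mesothelial genes summed to 128 to 157 CPM in tamoxifen+primidone libraries, 92.3 to 144 CPM in tamoxifen libraries and 70.5 to 87.2 CPM in control libraries. The 8 smooth muscle genes summed to 6413 to 8025 CPM in tamoxifen+primidone libraries, 6709 to 8161 CPM in tamoxifen libraries and 8353 to 13187 CPM in control libraries.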
